A study of Homo sapiens with 10 samples.

Results

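The 220 olfactory receptor genes described here were taken from the array annotation by name alone. They are the probes with 1 gene symbol whose symbol reads OR, a family number, 1 or 2 letters and a member number, with pseudogenes ending in P left out and no filter on level. Each of the 220 has its own symbol, and they make up 220 of the 22011 probes on the array and 220 of the 14432 probes with 1 symbol. A further 60 probes carry an olfactory receptor symbol together with other symbols and were set aside, since their signal belongs to no single gene. Each probe stands for a transcript cluster, the array's unit of 1 gene.

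The cells were DLD-1, an established line from a human colorectal tumour, and 10 exon arrays read at gene level measured their RNA. The 4 hairpin clones were single cell clones carrying short hairpin RNA (shRNA) against LMNB1, the gene of lamin B1, under puromycin. Clones 8, 9 and 12, with 1 array each, carried construct V2LHS_62673. A further clone carried construct V2LHS_62675; its titles call it 12, its descriptions and the design text 2, and it is called clone 2 here. It had 3 arrays, which were averaged to 1 sample. The 4 controls were 3 clones with an empty vector under puromycin, 1 array each, and wild type cells with neither vector nor puromycin, 1 array. Each clone descends from a single cell, so a difference of 1 clone cannot be told apart from its hairpin. In such bulk RNA, fewer cells with a transcript and less of it in each cell cannot be told apart.

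Olfactory receptors are G protein-coupled receptors and form the largest gene family in mammals. Each olfactory sensory neuron expresses a single receptor gene from this family, while nearly all other cell types keep the genes silent in compact heterochromatin. The genes lie in clusters, and AT-rich clusters of silent genes of this kind are commonly bound to the nuclear lamina, the filament layer under the nuclear envelope of which lamin B1 is a part. Class I receptors are the fish-like families, which lie in a single region of chromosome 11, and class II receptors are the larger group particular to land vertebrates.

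The 220 genes were matched by gene identifier to RefSeq (GRCh38.p14), where 218 are protein coding and 2, OR10J3 and OR9H1, are transcribed pseudogenes. They belong to 17 families and lie on 15 chromosomes, with 114 of them on chromosome 11 and 26 on chromosome 1. The class I families 51 to 56 account for 47 genes and class II for 173. When receptor genes with no other protein-coding gene between them were joined, the 220 genes fell into 60 runs, of which 19 held 5 or more and together 153 of the genes. The array annotation gives no coordinates of the probes, so the places of the genes are those of RefSeq.

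The sequence before the annotated start of these genes is poor in G and C. RefSeq's promoter table held 173 of the 220 genes. In the 250 bases before the start, the median GC content was 37.6% for the 173 genes and 58.0% for all 27305 genes in the table. The median number of CG dinucleotides, the sites of DNA methylation, was 1 in the receptors and 11 in all genes, and 62.4% of the receptors had at most 1, against 15.4% of all genes. The homeodomain core TAATTA, the letters bound by factors such as LHX2, was found in 39 of the 173 windows (22.5%) and in 4.49% of all windows. The TATA box core TATAAA, on either strand, was found in 48 (27.7%) and in 11.1% of all windows. The palindrome of the EBF factors was found in 2 receptor windows (1.16%) and in 1.08% of all. In 75 of the 173 the annotated start is the start codon itself, so the window need not be the promoter there. In the other 98 genes the GC content was 40.0%, and TAATTA was present in 19.4%. TAATTA and TATAAA hold only A and T, and the counts were not adjusted for the lower GC content of the receptor windows. A match is a string of letters and not a measured binding site.

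Windows of 4 members are shown because the results below turn on these genes. OR2L3 had the strongest signal of the 220 probes and OR52E4 the largest difference between controls and the hairpin clones other than clone 8. OR52B4 had the second largest difference in clone 8 and holds the homeodomain core, and OR3A2 is the exception in base composition. They are the 250 bases before the RefSeq start, 5′ to 3′ on the gene's strand, with the homeodomain core, the TATA box core on either strand, and each CG in capitals. On GRCh38.p14 they are chr1:248046586-248046835 (plus strand) for OR2L3, chr11:5880379-5880628 (plus strand) for OR52E4, chr11:4368387-4368636 (minus strand) for OR52B4 and chr17:3386309-3386558 (minus strand) for OR3A2.
OR2L3: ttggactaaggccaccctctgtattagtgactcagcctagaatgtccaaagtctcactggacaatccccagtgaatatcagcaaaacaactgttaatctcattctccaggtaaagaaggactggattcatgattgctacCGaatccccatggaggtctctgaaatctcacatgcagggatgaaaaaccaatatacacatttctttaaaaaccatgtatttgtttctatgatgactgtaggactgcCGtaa
OR52E4: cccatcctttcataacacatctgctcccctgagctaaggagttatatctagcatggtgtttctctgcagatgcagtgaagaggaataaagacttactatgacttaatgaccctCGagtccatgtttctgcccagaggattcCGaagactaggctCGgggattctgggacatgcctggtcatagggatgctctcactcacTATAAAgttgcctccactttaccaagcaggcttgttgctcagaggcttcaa
OR52B4: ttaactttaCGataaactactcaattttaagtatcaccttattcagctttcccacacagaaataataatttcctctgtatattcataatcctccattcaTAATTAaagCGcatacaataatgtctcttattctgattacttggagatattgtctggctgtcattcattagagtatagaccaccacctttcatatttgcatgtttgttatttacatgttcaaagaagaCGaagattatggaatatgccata
OR3A2: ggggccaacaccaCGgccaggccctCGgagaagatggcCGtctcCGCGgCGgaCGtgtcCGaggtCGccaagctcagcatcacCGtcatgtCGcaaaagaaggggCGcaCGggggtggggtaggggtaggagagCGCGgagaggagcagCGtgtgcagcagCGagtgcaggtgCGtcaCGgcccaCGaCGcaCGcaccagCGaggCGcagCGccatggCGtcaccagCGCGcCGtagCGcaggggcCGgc
The OR2L3 window holds 2 CG and neither motif, and that of OR52E4 holds 3 CG and 1 TATAAA. The window of OR52B4 holds 3 CG and 1 homeodomain core, and its GC content is 31.2%. The OR3A2 window holds 31 CG at a GC content of 71.2%, the most of the 173, followed by OR1F1 with 18 and OR2L13 with 16.

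The arrays were checked first. The LMNB1 probe, which the annotation shares with PCIF1, stood at 9.52 in wild type cells, 8.93, 9.17 and 8.84 in the empty vector clones, and 7.79, 7.70, 7.45 and 7.67 in clones 8, 9, 12 and 2 (log2 level). Its hairpin minus control difference was -1.46, all 4 hairpin clones lay below all controls, and the exact two-sided permutation p was 0.0286, which is the least that 70 regroupings can give. Clone 8 gave an unlike array. Over all probes its correlations with the rest were 0.915 to 0.926, while the remaining pairs reached 0.986 to 0.994, and its 25th percentile was 6.32 against 5.82 to 5.96. For that reason clone 8 is described on its own, and the hairpin clones without it are called clones 9, 12 and 2. Among 12 colon epithelium markers, EPCAM, CDH1, KRT8, KRT18, KRT19, CDH17 and CDX2 lay above the 75th percentile of all probes. VIL1, LGALS4, CDX1 and GPA33 lay at percentiles 71.8, 43.6, 36.4 and 31.6. KRT20, a marker of differentiated colon cells, lay at percentile 13.8. Of the olfactory neuron markers with a probe, OMP, STOML3 and CNGA2 lay at percentiles 13.5, 17.5 and 25.6. RTP1 and GNAL lay higher, at 42.3 and 54.8.

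The receptor genes gave weak signals in these cells. Over the 8 clone-level samples, 177 of the 220 had a mean log2 level below 5.96, the array's 25th percentile; probes below it are called dim. The other 43 lay above it, 219 of the 220 lay under the median of all probes, and none reached the 75th percentile. The mean level of the 220 ran from 3.36 to 7.66 with a median of 5.18. Probes differ in how strongly they respond, so these ranks describe array signal and give no order of expression between genes. The deposited values carry no detection call, so which receptors are transcribed at all is not known from them.

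The median of the 220 probes differed from array to array, controls included. It was 4.96 in wild type cells and 5.15, 4.81 and 5.01 in empty vector clones 1, 2 and 3. It was 5.18 in clone 9, 5.11 in clone 12 and 5.13 in clone 2, whose 3 arrays gave 5.22, 5.15 and 5.08. In clone 8 it was 5.87. Empty vector clone 1 thus lay above clones 12 and 2, and the groups overlapped when clone 8 was set aside. Empty vector clone 2 held the lowest of the 8 values for 110 of the 220 receptors, against 21.6% of all probes, and clone 8 the highest for 196 of the 220, against 55.3% of all probes. The 3 empty vector clones spanned 0.33 in the receptor median and 0.09 in the median of the 5326 dim probes that are no receptors, whose medians were 4.84, 4.75 and 4.82.

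**Figure D1:**
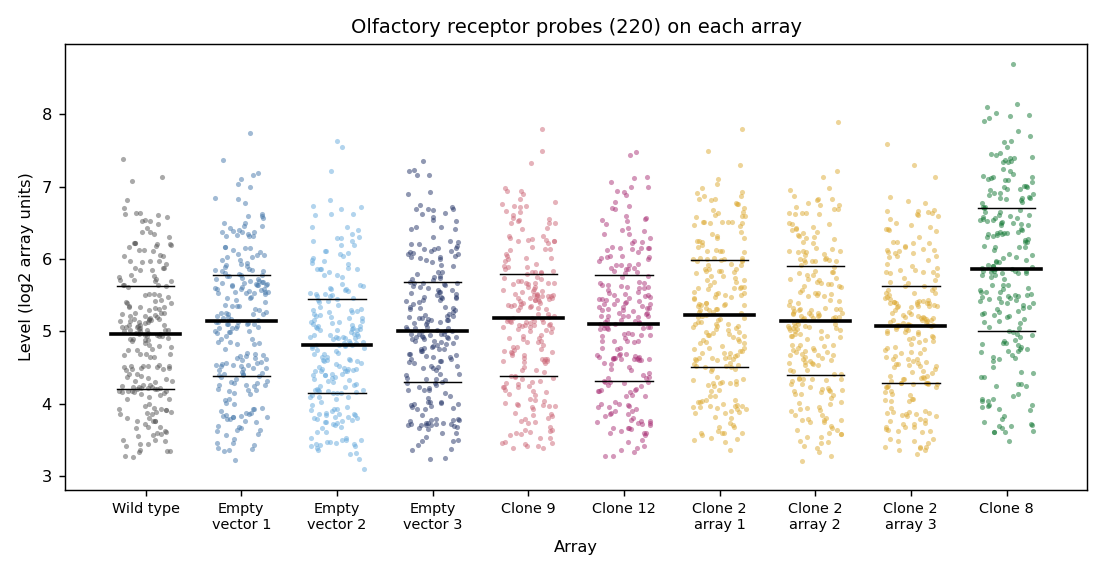
Log2 levels of the 220 olfactory receptor probes on each of the 10 arrays; each point is 1 probe, the thick line is the median and the thin lines are the quartiles. Medians lie between 4.81 and 5.22 on 9 arrays and at 5.87 in clone 8.

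The first question was whether any receptor gene is higher in clones 9, 12 and 2 than in the 4 controls. None of the 220 passed in limma after Benjamini-Hochberg adjustment over all 22011 probes, where the smallest adjusted p of a receptor was 0.700. The percentage of all probes called was 0.0. The LMNB1 probe did not pass there either, so not passing does not show that a gene is unchanged. By the unadjusted limma p at a threshold of 0.05, 20 receptors were higher and 0 lower, which is 9.09% of the 220, while 3.96% of all probes were higher by the same rule. The difference was above 0 for 187 of the 220, against 59.8% of all probes. The median difference was 0.12 for the receptors, 0.06 for the other dim probes and 0.03 for all probes. The receptor median of the 4 controls varied with an SD of 0.14, which is more than the median difference. Without empty vector clone 1, which had the highest receptor levels of the controls, 39 receptors were higher and 1 lower at an unadjusted p under 0.05, with 5.37% of all probes higher. Without clone 9 the counts were 12 and 0, with 2.85% of all probes higher, and in both cases 0 receptors passed. By direction alone, 13 receptors lay above every control in all of clones 9, 12 and 2, or 5.91%, where 4.5% of all probes and 6.97% of the other dim probes did. None lay below every control, where 2.02% of all probes did. The same 13 lay above every control with clone 8 counted in, against 3.03% of all probes and 6.12% of the other dim probes, and again none lay below, against 1.11% of all probes. As deposited, the share of the receptors was thus below that of the other dim probes, with no test of the difference. With clone 8 left out, quantile normalization and cyclic loess reversed this order. With quantile normalization 11 of the 220 lay above every control, against 3.01% of all probes and 2.38% of the other dim probes. With cyclic loess 12 did, against 3.34% and 2.63%. With each array centred on its median, 15 did, against 4.22% and 6.97%. With clone 8 counted in, each of these scalings reversed the order. Then 11, 12 and 15 receptors lay above every control with quantile normalization, cyclic loess and median centring. The shares of the other dim probes were 1.43%, 1.52% and 5.24%, and those of all probes 1.49%, 1.62% and 2.63%. With clone 8 left out and the empty vector clones as the only controls, 21 receptors lay above them, or 9.55%. The shares were 8.85% of all probes and 9.86% of the other dim probes.

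OR52E4, a class I receptor gene of the large chromosome 11 region, had the largest difference without clone 8. Its log2 level was 4.48 in wild type cells, 4.89, 3.93 and 4.52 in empty vector clones 1 to 3, 5.67 in clone 9, 5.49 in clone 12 and 4.79 in clone 2. Clones 9 and 12 lay above all controls and clone 2 lay within them. The difference was 0.86 (SE 0.26, n = 3 against 4, adjusted p = 0.762 in limma), and clone 8 stood at 6.53. Against the empty vector clones alone, it was 1.13 (SE 0.26) in clones 9 and 12 and 0.34 (SE 0.33) in clone 2, with adjusted p in limma of 0.275 and 0.912.

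OR4L1, in the chromosome 14 cluster, stood at 5.02 in wild type cells, 5.53, 4.48 and 4.89 in the empty vector clones and 6.32, 5.39 and 5.68 in clones 9, 12 and 2. Clone 9 carried most of the difference of 0.82 (SE 0.28), and clone 12 lay below empty vector clone 1. OR5M3, on chromosome 11, stood at 4.24, 5.27, 3.85 and 4.19 in the controls in the same order and at 5.13, 5.30 and 4.93 in the hairpin clones. Empty vector clone 1 was as high as the hairpin clones and well above the other controls, and the difference was 0.73 (SE 0.30). Neither gene passed, at adjusted p of 0.782 and 0.793 in limma.

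Of the 10 largest differences, OR10H3, OR4F6 and OR1G1 were the ones whose groups did not overlap. OR1G1, a receptor with many known odorants, had the smallest unadjusted p of the 220. It stood at 4.52, 4.64, 4.39 and 4.59 in the controls and at 5.03, 5.03 and 4.88 in clones 9, 12 and 2, a difference of 0.45 (SE 0.09, adjusted p = 0.700 in limma). OR10H3 stood at 5.21, 5.65, 5.08 and 5.01 in the controls and at 5.88, 5.86 and 5.72 in the hairpin clones, a difference of 0.59 (SE 0.15). OR4F6 stood at 4.22, 4.20, 3.81 and 4.20 against 4.73, 4.62 and 4.34. Clone 2 was the hairpin clone nearest to the controls. OR4E2 and OR2B6 also did not overlap, at 5.43, 5.13 and 5.30 against 4.89, 4.98, 4.50 and 5.03 for OR4E2 and at 6.57, 6.24 and 6.33 against 6.06, 6.15, 5.94 and 5.67 for OR2B6. Clone 8 was higher than the other hairpin clones for each of these 5 genes. None of them passed the test with or without clone 8.

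The remaining 4 of the 10 were OR2L2 (0.51, SE 0.19), OR6C3 (0.50, SE 0.23), OR2V2 (0.47, SE 0.18) and OR52B4 (0.46, SE 0.30), and all overlapped the controls. For OR2L2 clone 9 stood at 5.15 and clone 12 at 4.31, below the 4.37 of empty vector clone 1. For OR2V2 wild type cells, which carry no hairpin, stood at 5.43 and as high as clone 12.

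**Figure D2:**
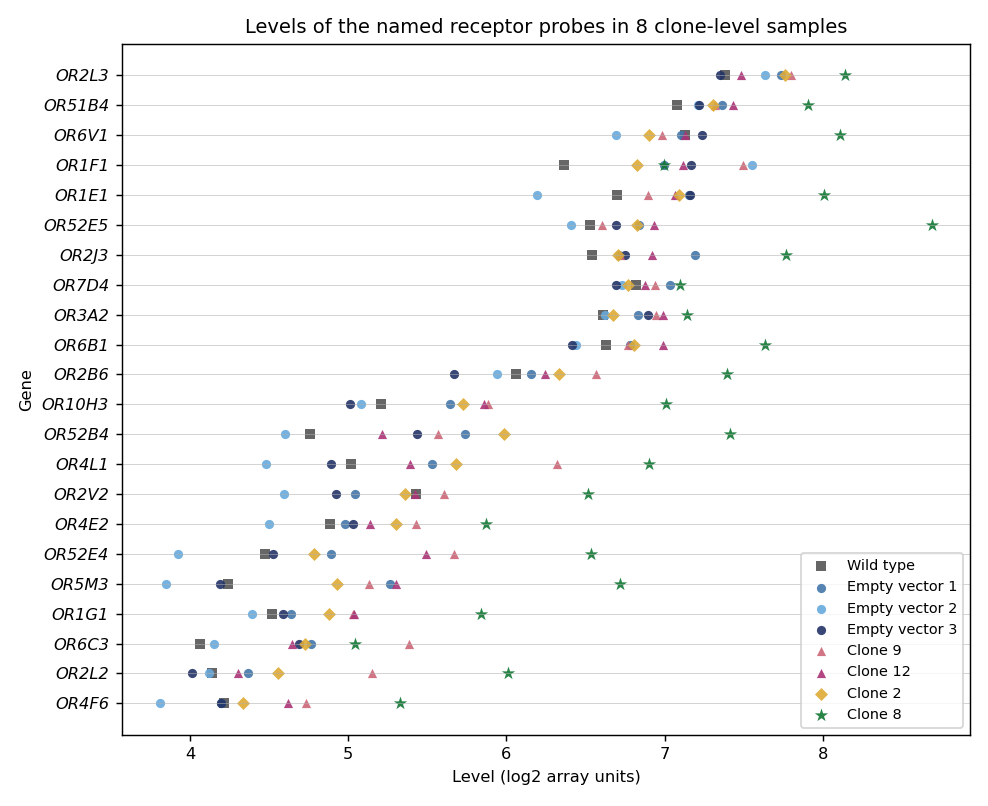
Log2 levels of 22 receptor probes in the 8 clone-level samples, 1 row a gene, ordered by mean level; squares are wild type cells, circles the empty vector clones, triangles clones 9 and 12, diamonds clone 2 (mean of 3 arrays) and stars clone 8. Clone 8 lies highest for 20 of them, the exceptions being OR1F1 and OR6C3.

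On the lower side the differences were small. The largest were OR13J1 (-0.30, SE 0.22), OR6Y1 (-0.23, SE 0.12), OR7A17 (-0.20, SE 0.16), OR8B4 (-0.16, SE 0.10) and OR52H1 (-0.13, SE 0.18). None passed in limma, and the adjusted p was 0.802 to 0.915. OR6Y1 stood at 6.58, 6.37, 6.29 and 6.69 in the controls and at 6.28, 6.09 and 6.37 in clones 9, 12 and 2, so the groups overlapped.

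The 10 probes with the strongest signal were OR2L3, OR51B4, OR6V1, OR1F1, OR1E1, OR52E5, OR2J3, OR7D4, OR3A2 and OR6B1. OR51B4, a receptor known from colorectal cancer cells, stood at 7.08 in wild type cells, 7.36, 7.21 and 7.22 in the empty vector clones and 7.32, 7.44 and 7.31 in clones 9, 12 and 2. The hairpin clones thus lay within or just above the controls, and the difference was 0.14 (SE 0.09, adjusted p = 0.822 in limma). OR2L3 stood at 7.38, 7.74, 7.63 and 7.35 in the controls and at 7.80, 7.48 and 7.76 in the hairpin clones (0.16, SE 0.13). The difference was 0.04 (SE 0.10) for OR7D4, a receptor of the steroid odorant androstenone, and -0.02 (SE 0.15) for OR2J3, a receptor of grassy-smelling alcohols. It was 0.29 (SE 0.11, adjusted p = 0.786 in limma) for OR6B1, where clone 9 (6.77) lay just under empty vector clone 1 (6.78). OR1F1 varied most among the controls of these 10, at 6.37 in wild type cells and 6.998, 7.55 and 7.17 in the empty vector clones. Its values in clones 9, 12 and 2, 7.50, 7.12 and 6.82, lay inside that range.

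The 2 constructs were then compared with the 3 empty vector clones, which went through the same selection. No receptor passed in limma for clones 9 and 12, where the percentage of all probes called was 0.0. Unadjusted, 12 receptors were higher and 0 lower, and the higher side held 5.62% of all probes. No receptor passed for clone 2, where 0.0591% of all probes were called. There 3 receptors, OR2V2, OR1G1 and OR6K2, had an unadjusted p under 0.05, all higher, and the higher side held 6.15% of all probes. The receptor median difference was 0.10 in clones 9 and 12 and 0.12 in clone 2, while the receptor median of the empty vector clones varied with an SD of 0.17. These values depended on single arrays. Without empty vector clone 2 the medians were 0.02 and 0.04. At an unadjusted p under 0.05, clones 9 and 12 then had 4 receptors higher, or 1.82%, and 4 lower, where 3.88% of all probes were higher. Without empty vector clone 1 the medians were 0.16 and 0.17. Clones 9 and 12 then had 28 receptors higher, or 12.7%, and 0 lower, where 7.99% of all probes were higher. The median of clone 2 was 0.07 without its array 1. These comparisons share the same 3 control arrays. Tested directly, clone 2 minus clones 9 and 12 gave 0 of 220 receptors in limma, where 0.0136% of all probes were called, with a median difference of 0.02 and 2 receptors at an unadjusted p under 0.05, OR2L13 (0.31) and OR7G3 (-0.42), where 9.93% of all probes had one. That median ran from -0.04 without array 1 of clone 2 to 0.08 without its array 3.

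The wild type minus empty vector difference was above 0 for 77 of the 220 receptors, against 47.4% of all probes, with a median of -0.06. None passed in limma, where 0.00909% of all probes were called, and 5 had an unadjusted p under 0.05, 4 of them lower, where 13.3% of all probes did. OR1F1 had the largest of these, -0.87 (SE 0.24, adjusted p = 0.202 in limma). OR2V2 was the 1 higher, at 0.57 (SE 0.19). Without empty vector clone 2 the median was -0.12, and without empty vector clone 1 it was -0.01. Since clone 2 and the wild type cells each count as 1 sample here, their spread was borrowed from the remaining groups.

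With clone 8 added to the hairpin clones, the 4 against 4 comparison again gave 0 of 220 receptors in limma, and the percentage of all probes called was 0.0. Unadjusted, 21 receptors were higher and 0 lower, or 9.55%, against 2.21% of all probes on the higher side. That count was 10 without empty vector clone 2 (0.922% of all probes), 11 without wild type cells (1.49%), 13 without empty vector clone 3 (1.16%) and 34 without clone 12 (3.01%). The receptor median difference was 0.29, and 215 of 220 were above 0, against 65.5% of all probes. The smallest adjusted p was 0.704.

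In clone 8 nearly every receptor was higher than in the controls. Its level exceeded every control for 205 of the 220, against 58.5% of all probes. In limma 168 receptors passed as higher and 0 as lower, or 76.4% of the 220, where 45.3% of all probes passed as higher and 64.2% in either direction. The median difference was 0.79, with quartiles of 0.52 and 1.15. The difference was above 0 for 218 of the 220, against 66.3% of all probes. Clone 8 is 1 array of 1 clone, so the test takes its spread from the other samples and there is no replicate of it. Against clones 9, 12 and 2, which carry hairpins too, 149 receptors passed as higher and 0 as lower, where 42.7% of all probes passed as higher and 61.5% in either direction.

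The dim part of the array moved with it. The 5326 other dim probes had a median difference of 0.44 in clone 8, and 57.2% of them passed as higher. Probes between the 25th percentile and the median of level had a median difference of 0.53, those from there to the 75th percentile 0.21, and the strongest ones -0.40. Among other silent clustered families, the 35 keratin-associated protein probes had a median of 0.82, with 26 higher in the test, the 8 beta defensin probes 1.18, with 7 higher, and the 19 bitter taste receptor probes 0.37, with 7 higher and 3 lower. The 9 measured trace amine and vomeronasal receptors had a median of 0.84, with 8 higher. How far the shape of this array's signal accounts for the receptor values cannot be told apart from clone 8 itself. When the arrays were brought to a common scale, fewer receptors passed as higher in clone 8. With each array centred on its median 122 did and 0 passed as lower, where 27.2% of all probes passed as higher. With quantile normalization 94 were higher and 2 lower, where 28.1% of all probes were higher. With cyclic loess, which removes differences that depend on level, 73 were higher and 3 lower, where 21.3% of all probes were higher. The higher share of all called probes was 70.5% as deposited and 52.5%, 56.8% and 51.3% under these scalings. The median difference of the receptors was then 0.54, 0.38 and 0.31, while that of all probes was 0.07, 0.07 and 0.01.

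**Figure D3:**
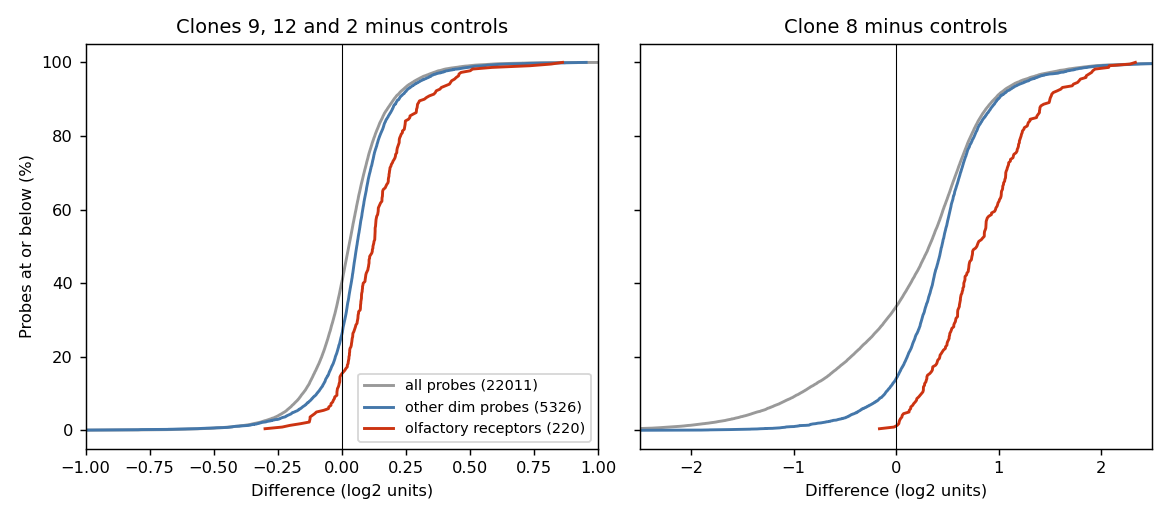
Cumulative share of probes (percent) by log2 difference from the 4 controls, for clones 9, 12 and 2 on the left and clone 8 on the right, with the extreme tails outside the axes; red is the 220 receptors, blue the 5326 other dim probes and grey all 22011 probes. The red curve lies to the right of both others, with medians of 0.12 on the left and 0.79 on the right.

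The largest differences in clone 8 were those of OR5M3, at 6.72 against 3.85 to 5.27 in the controls (2.33, SE 0.44, adjusted p = 0.00234 in limma), OR52B4 at 7.42 against 4.60 to 5.74 (2.28, SE 0.44), OR52E4 at 6.53 against 3.93 to 4.89 (2.08, SE 0.39) and OR52E5 at 8.69 against 6.41 to 6.84 (2.07, SE 0.18). The fifth was OR51A7 at 5.98 against 3.86 to 4.22 (1.94, SE 0.22). All 5 are genes of chromosome 11, which holds 114 of the 220, and 4 are class I. Against clones 9, 12 and 2 the largest were OR52E5 (1.90, SE 0.19), OR52B4 (1.83), OR2C1 (1.78), OR2G3 (1.69) and OR51A7 (1.64). OR5M9 and OR1F1 were the 2 receptors not higher in clone 8, at 3.93 against controls of 3.91 to 4.39 and at 6.998 against 6.37 to 7.55. OR1F1 has the second most CG in its upstream window, while OR5M9 has 1. OR3A2 and OR2L13, with the most and the third most, stood 0.40 and 0.71 higher in clone 8. Over the 220 receptors the difference in clone 8 went up with the mean level (Spearman's rho 0.39, which shares the clone 8 value on both sides), and over the 173 with a RefSeq window its rho with upstream GC content was 0.05.

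Class I and class II were set side by side, with no test between them. Class I receptors had a median difference of 0.14 in clones 9, 12 and 2, with 42 of 47 above 0, and class II of 0.12, with 145 of 173 above 0. Of all probes, 59.8% were above 0 in clones 9, 12 and 2. In clone 8 the medians of class I and class II were 1.03 and 0.74, where the median of all probes was 0.32. The class I median also varied more among the empty vector clones, from 4.92 in empty vector clone 2 to 5.47 in empty vector clone 1, against 4.80 to 5.04 for class II. Among families with at least 5 members, family 51 had the highest median in clone 8, 1.17, and family 10 the lowest, 0.55.

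The 19 runs of 5 or more neighbouring receptor genes had median differences of 0.01 to 0.24 in clones 9, 12 and 2 and of 0.41 to 1.23 in clone 8. Over all probes the medians were 0.03 and 0.32, and 59.8% lay above 0 in clones 9, 12 and 2. The chromosome 14 run from OR4K1 to OR11H4 had the highest median in clone 8, 1.23. In clones 9, 12 and 2 its median was 0.21, with all 8 members above 0. The chromosome 11 run from OR51F1 to OR51V1 had 1.16 in clone 8 and 0.20 in the others, with 14 of 14 above 0 there. The chromosome 1 run from OR10T2 to OR10X1 had the lowest medians in both, 0.41 and 0.01. The longest, from OR5W2 to OR5AK2 on chromosome 11, had 0.66 in clone 8, where its 19 members ran from -0.16 to 2.33, so members of a run did not share 1 value.

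**Figure D4:**
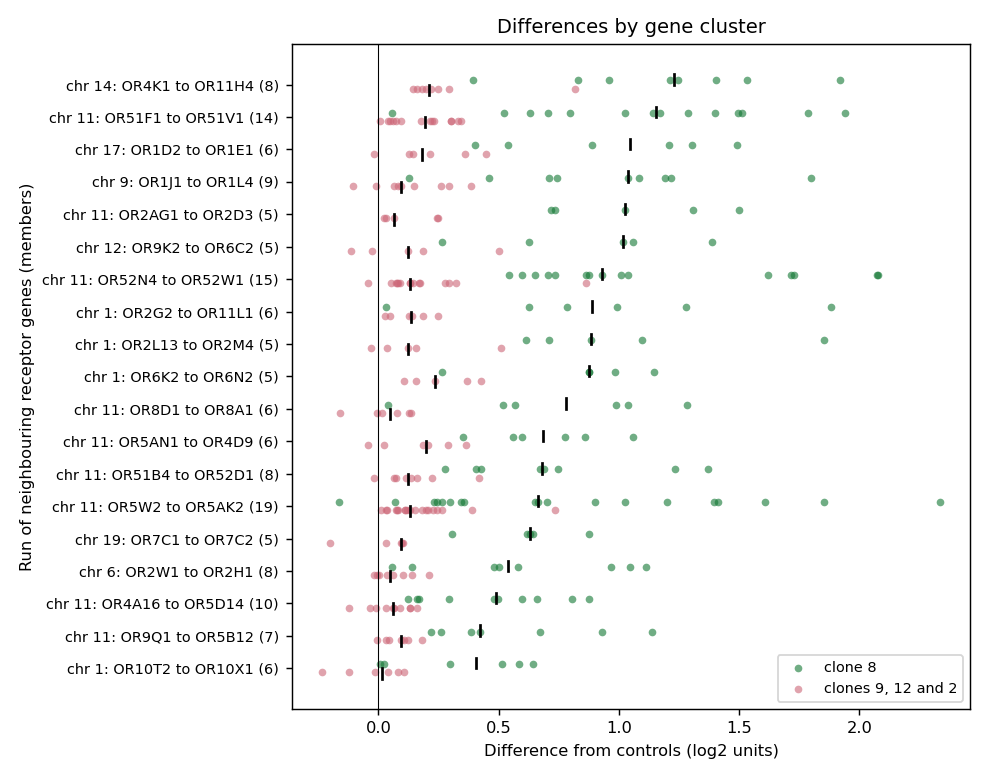
Log2 difference from the 4 controls for members of the 19 runs of neighbouring receptor genes, with the number of members in brackets; green points are clone 8, red points clones 9, 12 and 2, and black ticks are medians. Run medians span 0.41 to 1.23 in clone 8 and 0.01 to 0.24 in the other hairpin clones.

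The genes that flank these runs were looked at after the receptor values were known. Of the 22 nearest protein-coding neighbours with a probe of their own, 10 were dim. Their median difference was 0.08 in clones 9, 12 and 2 and 0.52 in clone 8, against 0.03 and 0.32 for all probes. Of the 22, 20 were higher in clones 9, 12 and 2, against 59.8% of all probes. In clone 8, 16 of the 22 were higher, against 66.3% of all probes. In clone 8 HBB, the beta globin gene beside a class I run, stood 1.31 higher, and NEUROD4, a neural transcription factor gene beside the chromosome 12 run, 1.15 higher. The largest differences on the lower side there were those of MRPL17, a mitochondrial ribosomal protein gene (-1.21), and PDCL (-1.10). In clones 9, 12 and 2 no neighbour passed in limma, and the largest difference was that of GCSAML (0.28, SE 0.12, adjusted p = 0.802).

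Next came the genes that work with olfactory receptors in the nose. Of 27 genes listed, 21 had a probe, and in clones 9, 12 and 2 the median difference was -0.01, with 10 of 21 above 0 and none past the test. RIC8B, a chaperone of the olfactory G protein, stood 0.31 higher (SE 0.08, adjusted p = 0.751 in limma) and ANO2, the chloride channel of olfactory neurons, 0.29 higher (SE 0.09). LDB1, a cofactor that links receptor gene enhancers, stood at -0.17 (SE 0.09) and OMP, the marker of mature olfactory neurons, at -0.34 (SE 0.20). In clone 8 most of the 21 were higher, where 66.3% of all probes were. The largest differences on the higher side were those of ATF5 (1.23) and OMP (1.20). The only genes of the list that were lower in clone 8 were the G protein subunit gene GNB1 (-0.71), RIC8B (-0.68), LDB1 (-0.38) and KDM1A (-0.10). Of the 9 trace amine and vomeronasal receptors, 8 stood higher in clones 9, 12 and 2 with a median of 0.16, and the largest was TAAR6 (0.56, SE 0.19, adjusted p = 0.782 in limma). It was followed by VN1R3 (0.18), TAAR8 (0.16) and TAAR2 (0.21) in order of p.

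Of 24 listed genes of the lamina and of heterochromatin, 22 had a probe. In clones 9, 12 and 2 their median difference was -0.02 and none passed. The smallest p belonged to SUN1, an inner membrane protein of the nuclear envelope (-0.26, SE 0.10, adjusted p = 0.789 in limma), CBX5, which encodes heterochromatin protein HP1 alpha (0.18, SE 0.11), LMNB2, the other B-type lamin (0.14, SE 0.09), and LMNA (-0.19, SE 0.13). In clone 8 differences went both ways, among them those of LBR, the lamin B receptor, at 0.43, CBX5 at -1.19 and the H3K9 methyltransferase SUV39H2 at -1.51.

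Markers of other cell types were compared in the same way. Median differences in clones 9, 12 and 2 and in clone 8 were 0.03 and 0.41 for 6 of 8 leukocyte markers on the array, 0.05 and 0.70 for 9 fibroblast and endothelial markers, and 0.07 and 0.48 for 6 sperm and testis markers. Over all probes the medians were 0.03 and 0.32. Colon epithelium markers had medians of -0.09 and 0.18. The 6 leukocyte markers stood between percentile 4.48 (PTPRC) and 57.3 (CD68) of all probes, the 9 fibroblast and endothelial markers between 4.04 (LUM) and 54.3 (COL1A1), and the 6 sperm and testis markers between 13.01 (ACRV1) and 33.4 (TNP1). The part of these genes in the receptor values was not tested.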

How the data were processed

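The 10 exon arrays of DLD-1 cells were made from total RNA depleted of ribosomal RNA, per the labels' protocols. The deposited values are 1 log2 level for each of 22011 probes on each array. The log base was read from their range, and no source used here states the authors' background correction, normalization or probe summary. The values were used with no further scaling. Genes were named through the platform annotation, in which 14432 probes have 1 symbol, 2408 several and 5171 none.

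The 3 arrays of clone 2 were averaged, which gave 8 clone-level samples. Linear models over all 22011 probes came from limma 3.58.1 under R 4.3.3, with moderated two-sided tests and p-values adjusted by Benjamini-Hochberg over all probes at a threshold of 0.05. Residual degrees of freedom were 5 in the fit of 3 groups (controls, clones 9, 12 and 2, clone 8) and 3 in that of 5 groups. The p-values measure the spread between these clones and arrays, and the number of arrays limits the precision. The fit was tested on simulated data.

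Genes were named by rule: the 10 strongest signals, the 10 largest positive and 5 largest negative differences without clone 8, the 5 largest that passed in a comparison, 5 that did not overlap, and up to 4 smallest p of each other list. The members, lists and rules were chosen with earlier results of these data known, and receptor sets therefore have no test. Alternatives were 3 scalings, 2 probe filters, 2 other priors or weights, other controls, each array as a replicate, blocks and omissions of single samples.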

Additional observations from a re-analysis of the deposited data

Results flagged for a closer look

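Single samples that lay far from the other 3 of their group were searched for in the hairpin clones and in the controls, for the receptor median, the LMNB1 probe and the named receptors. There were 64 such checks, chance flags about 1 in 20, and 7 were found. That rate cannot be used to judge the number found, since some receptors were named for large differences between these same samples. The checks also share the same arrays, so they are not independent.

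Clone 8 was the one in 6 of them. Its receptor median was 5.87, where the other hairpin clones lay between 5.11 and 5.18. Its level was 8.69 for OR52E5, 7.01 for OR10H3, 5.84 for OR1G1, 4.11 for OR8B4 and 6.85 for OR2G3, each far above the other hairpin clones. OR52E5 and OR2G3 were among the receptors named for a large difference between clone 8 and the other hairpin clones. Empty vector clone 2 was low for OR4F6, at 3.81 against 4.20 to 4.22 in the other controls.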

How the results depend on the processing

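No receptor passed in any alternative for clones 9, 12 and 2, all 4 hairpin clones, either construct, wild type cells or clone 2 minus clones 9 and 12, and each of their median differences moved by less than the spread between controls except that of all 4 hairpin clones. That median of 0.29 was 0.13 with cyclic loess and 0.12 to 0.35 when single samples were left out. The 0.12 was the value without clone 8, which is the comparison of clones 9, 12 and 2 itself. Without clone 8 and wild type cells, a setting chosen after seeing the data that leaves the same hairpin clones, the median was 0.10. In clone 8 minus controls, 96 receptors passed with quantile normalization (49.4% of all probes), 76 with cyclic loess (41.5%) and 36 with a filter at the 25th percentile, under which 43 were tested (65.98%). The median of 0.79 became 0.38 with quantile normalization, 0.54 with median centring, 0.31 with cyclic loess and 1.04 under the filter. Against clones 9, 12 and 2 the counts were 74, 93, 58 and 31 and the medians 0.35, 0.46, 0.26 and 0.82 in the order quantile, centring, loess and filter, where 48.2%, 47.4%, 39.4% and 64.8% of all probes passed, and the median was 0.65 to 0.71 with single samples left out. Receptors above every control in clones 9, 12 and 2 numbered 11, 15 and 12 with quantile normalization, median centring and cyclic loess. The shares of all probes were 3.01%, 4.22% and 3.34%. With the empty vector clones as the only controls they numbered 21, against 8.85% of all probes. Signs turned for named genes, none of which passed for clones 9, 12 and 2. With single samples left out, the difference in clones 9, 12 and 2 ran from -0.151 to 0.0294 for OR6V1, -0.0919 to 0.303 for OR1F1, -0.10 to 0.11 for OR2J3, -0.25 to 0.02 for OR52H1 and -0.0041 to 0.33 for OR2C1. For OR1F1 the value of -0.0919 was that without wild type cells, which leaves the empty vector clones as the only controls. Its difference was -0.0026 with each array of clone 2 as a replicate. Clone 2 and the empty vector clones share replicate numbers. Same-numbered deviations correlated at 0.09, -0.13 and -0.11, and the other pairs at -0.09 to 0.20. Deviations from a mean of 3 arrays are tied to one another, so these values do not settle whether arrays were paired. With the replicate block over the 6 arrays 0 receptors and 206 probes passed, and 437 probes without it. The cause was not tested. Weak signals limit all receptor values.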

Other observations

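The 53 probes whose several symbols are all olfactory receptors were not among the 220. Their median level was 5.10 in wild type cells, 5.34, 5.07 and 5.35 in the empty vector clones, 5.31, 5.15 and 5.37 in clones 9, 12 and 2 and 6.25 in clone 8. Their median difference in clones 9, 12 and 2 was 0.03, with 30 of 53 above 0. In clone 8 it was 0.69, where the median of all probes was 0.32.

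Receptors known outside the nose gave weak signals here too. OR51E1 and OR51E2, known from prostate, differed by -0.02 (SE 0.16) and 0.19 (SE 0.13) in clones 9, 12 and 2, and OR2AT4, known from skin, by 0.24 (SE 0.14). They were chosen for what is known of them after all values had been computed.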
